A study of Mus musculus with 15 samples.

Results

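Before a cell divides it must copy its genome once and only once, and the genes described here encode the machinery for that step and for the passage from G1 into S phase. They comprise 47 mouse genes, of 23846 genes in each expression table, that were chosen by symbol for their known part in replication and the G1/S step. All 47 were listed in both tables, passed the filter on low values in all 5 comparisons described here, and are annotated as protein-coding. By role they fall into 5 origin licensing genes, the 6 subunits of the MCM helicase, 6 genes for assembling the active helicase, 6 primase and polymerase genes, 9 genes of the sliding clamp, its loader and the lagging strand, 5 genes of nucleotide supply, 6 genes that copy chromatin or its marks, 3 G1/S regulators and the repair gene *Brca1*.

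Expression was measured by RNA-seq of 15 libraries from sorted mouse cells, in 2 tables that were each analysed by themselves. Group 2 innate lymphoid cells (ILC2s) are tissue lymphocytes without antigen receptors that respond to the alarmin IL-33. In the first table, ILC2s were sorted from lungs of C57BL/6 mice given 500 ng IL-33 by intraperitoneal injection once a day for 4 days (ILC2IL-33, 2 libraries, WT and Expand) or PBS (ILC2PBS, 3 libraries, named 1, 2 and nA). In the second table, every animal had received IL-33 and carried the 10BiT Foxp3 GFP double reporter, in which Thy-1.1 is driven from a bacterial artificial chromosome holding *Il10* and GFP is expressed from the *Foxp3* locus. From these mice came lung ILC2s with the *Il10* reporter on (ILC210, 3 libraries, 02, 04 and 08) and without it (ILC2act, 3 libraries, 01, 03 and 07), and splenic regulatory T cells with it (Treg10+, 2 libraries, 06 and 10) and without it (Treg10-, 2 libraries, 05 and 09). A reporter on a bacterial artificial chromosome marks cells that switch on the transgene, cells from 5 mice were pooled per experiment, and mice were 6 to 14 weeks old and of either sex. The unit was FPKM, in which fragment numbers are divided by transcript length and by the size of the library, so that genes of different length can be compared within a library.

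Replication starts at origins that are licensed in G1, when the origin recognition complex, Cdc6 and Cdt1 load the ring of Mcm2 to Mcm7 onto DNA. In S phase Cdc45 and the GINS complex turn that ring into the active helicase, primase and DNA polymerases copy the strands, and the clamp Pcna holds the polymerases on DNA. Transcription factors of the E2F family, which are released from the retinoblastoma protein by cyclin-dependent kinases, are known to switch on many of these genes together, so that their mRNA level is commonly read as a sign of cycling cells. In bulk RNA, a larger share of cycling cells and more of these transcripts per cycling cell cannot be told apart.

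Because the E2F site is the known shared element of this gene set, the promoters were searched for the E2F words TTTCCCGC, TTTCGCGC, TTTGCCGC and TTTGGCGC on both strands, counting overlapping matches on opposite strands separately. A RefSeq window on the GRCm38.p6 assembly, running from 250 bases before to 50 bases after the annotated start, was found for 38 of the 47 genes, 1 of them under another symbol. At least 1 word lay in 16 of these 38 windows (42.1%), against 20 of 70 windows of other genes of the pathway (28.6%) and 424 of 9185 windows of genes tested in ILC2IL-33 against ILC2PBS (4.62%). Windows with 2 or more words numbered 6 of 38 (15.8%), against 0.239% of the tested genes. The CCAAT box, searched in the same way as a second common promoter element, was in 23 of 38 windows (60.5%), against 42.6% of the tested genes.

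In 11 genes a word stood before the start, and the 8 stretches shown here were chosen to cover licensing, helicase, polymerase and chromatin genes, each with up to 11 bases on either side and with the E2F words in capitals (5′ to 3′ on the gene's strand, RefSeq, GRCm38.p6).
*Orc1*, chr4:108579416-108579445, plus strand: ttcggttagtgGCGCGAAAagttttctcct
*Cdc6*, chr11:98908002-98908031, plus strand: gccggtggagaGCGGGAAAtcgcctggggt
*Mcm5*, chr8:75109345-75109378, plus strand: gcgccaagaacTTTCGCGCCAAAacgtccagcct
*Mcm6*, chr1:128359734-128359826, minus strand: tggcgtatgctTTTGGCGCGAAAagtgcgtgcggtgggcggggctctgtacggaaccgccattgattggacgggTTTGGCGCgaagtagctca
*Mcm7*, chr5:138172030-138172059, minus strand: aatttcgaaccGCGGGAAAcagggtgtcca
*Pola1*, chrX:93632275-93632304, minus strand: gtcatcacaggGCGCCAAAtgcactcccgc
*Uhrf1*, chr17:56304117-56304146, plus strand: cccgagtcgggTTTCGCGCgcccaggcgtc
*Hells*, chr19:38930917-38930946, plus strand: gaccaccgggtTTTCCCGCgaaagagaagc
In *Mcm5* and *Mcm6* a pair of words overlap on opposite strands, which makes 1 longer run of capitals, and *Mcm6* holds 3 words in all. The stretches of *Orc1*, *Mcm7* and *Hells* overlap an exon in the GENCODE annotation, and the other 5 overlap none. By the deposited gene coordinates, those of *Cdc6* and *Uhrf1* lie after the start of the gene (98907889 and 56303337), so the RefSeq start of their window is a later one. A match is a description of the letters and not a measured binding site.

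*Il1rl1*, *Foxp3* and *Il10* followed the labels of the sorted populations. Of 8 ILC2 markers, 5 were higher in every ILC2act than in every Treg10- library and 2 were lower (27.9% and 33.9% of all genes). In ILC210 against Treg10+, 4 of these 8 were higher and 2 lower (31.1% and 29.2% of all genes). All 6 Treg markers were lower in the ILC2 libraries in both comparisons. *Il1rl1*, the IL-33 receptor gene, was at 99.6 to 128 FPKM in the ILC2 libraries of the second table and 20.6 to 39.9 FPKM in the Treg libraries, and *Foxp3*, which specifies regulatory T cells, was at 88.4 to 112 FPKM in Treg libraries and at most 0.0955 FPKM in ILC2s of that table. *Il10* was at 113 to 155 FPKM in ILC210, against 8.91 to 16.0 FPKM in ILC2act. RNA of other lung cells differed between groups. The 6 alveolar type 2 epithelial markers summed to 86.1 and 154 FPKM in ILC2IL-33, against 4424 to 13126 FPKM in ILC2PBS, and to 5267 to 8558 FPKM in ILC210, against 399.9 to 503 FPKM in ILC2act, with none at 0 in any of these 11 libraries. The 8 endothelial markers summed to 40.7 and 58.0 FPKM in ILC2IL-33, against 716 to 1274 FPKM in ILC2PBS, and to 341 to 477 FPKM in ILC210, against 53.3 to 61.0 FPKM in ILC2act, again with none at 0. The summed macrophage, erythroid, neutrophil and B cell markers followed the same order in both ILC2 comparisons and did not overlap between groups. Relative depth, read from the smallest steps between low values, was 74.8% to 100% of the deepest library in the first table and 36.2% (Treg10+ 06) to 100% (ILC210 08) in the second, and absolute depth is unknown.

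The first comparison asked how IL-33 injection changed these genes in lung ILC2s. Of the 47 genes, 43 were higher in ILC2IL-33 at an adjusted p under 0.05 and at least 2-fold (limma on log2 of FPKM floored at 1, Benjamini-Hochberg over 12565 genes), and 0 were lower. Of all genes tested, 8.22% were higher and 18% were lower by the same rule. The median log2 change of the 47 was 1.95, against −0.06 for all genes tested. The ranges of the groups did not overlap for any of the 47, with both ILC2IL-33 libraries above all 3 ILC2PBS libraries, whereas 26.7% of all genes had such ranges and 35.7% had separate ranges with ILC2IL-33 below.

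Added up, the 47 genes gave 1446 (WT) and 1694 (Expand) FPKM in ILC2IL-33, against 455, 381 and 445 FPKM in ILC2PBS libraries 1, 2 and nA. The median gene of the 47 stood at 20.4 and 25.1 FPKM in ILC2IL-33, against 6.94, 5.35 and 5.50 FPKM in ILC2PBS. All 47 exceeded 1 FPKM in both ILC2IL-33 libraries, against 39, 37 and 41 of them in the ILC2PBS libraries.

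**Figure D1:**
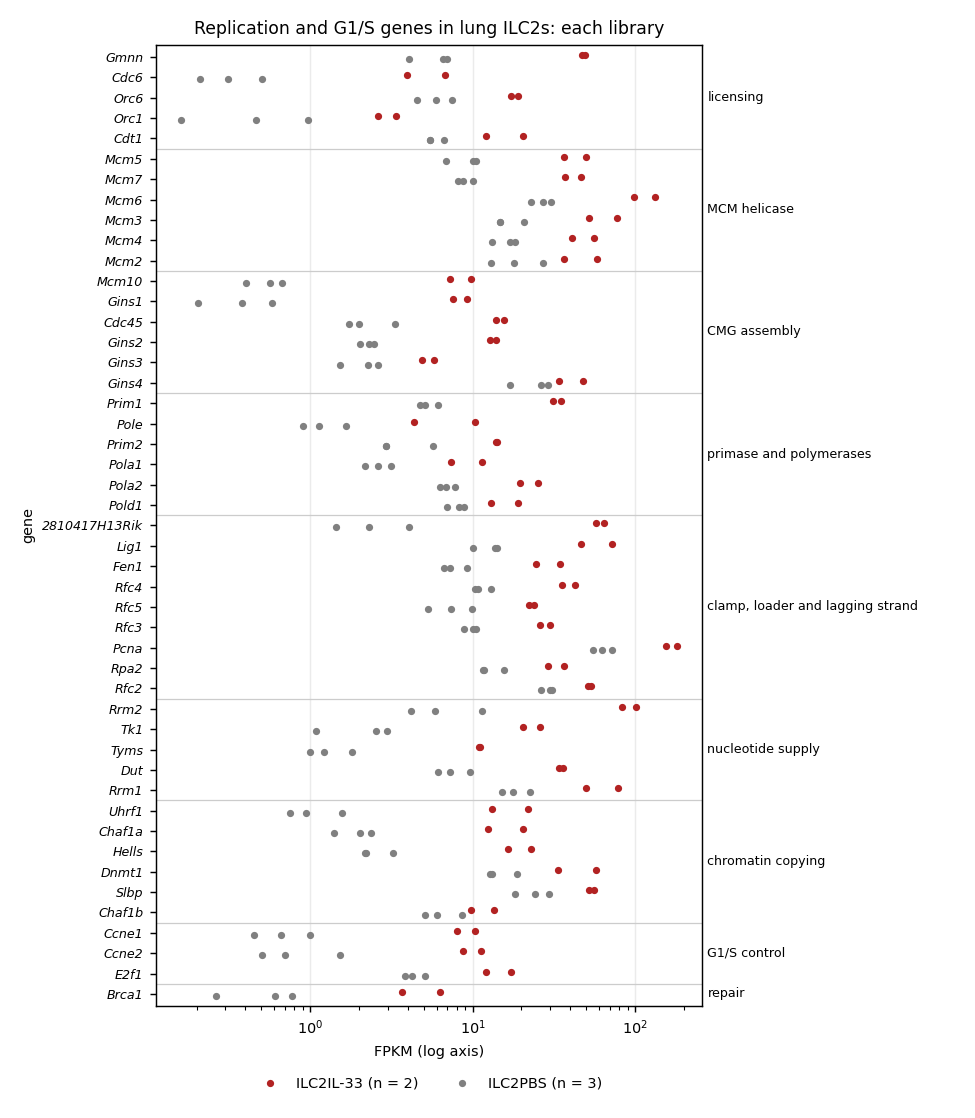
FPKM (log axis) of the 47 genes in the 2 ILC2IL-33 libraries and the 3 ILC2PBS libraries, 1 point a library, grouped by role and ordered by log2 change within a role. Every ILC2IL-33 point lies right of every ILC2PBS point of the same gene, and the fitted log2 change was largest for *2810417H13Rik* and smallest for *Gins4*.

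All 5 licensing genes rose, with a median log2 change of 1.62. *Cdc6*, which helps the origin recognition complex to load the helicase, was at 3.92 and 6.72 FPKM in ILC2IL-33 (WT, Expand), against 0.210, 0.312 and 0.502 FPKM in ILC2PBS (1, 2, nA), a log2 change of 2.36 ± 0.29 (SE, adjusted p = 0.00067). *Cdt1*, its loading partner, was at 12.2 and 20.5 FPKM, against 5.45, 6.64 and 5.50 FPKM in ILC2PBS, a change of 1.44 ± 0.28 (adjusted p = 0.00614). *Gmnn* encodes geminin, the inhibitor of Cdt1 that prevents a second round of licensing. It was at 49.5 and 47.5 FPKM in ILC2IL-33, against 6.94, 6.60 and 4.05 FPKM in ILC2PBS, and its change of 3.09 ± 0.27 (adjusted p = 0.000156) was more than that of the licensing factor it inhibits. *Orc1* and *Orc6*, subunits of the origin recognition complex, changed by 1.57 and 1.62, with *Orc1* under 1 FPKM in all 3 ILC2PBS libraries.

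The 6 genes of the MCM ring all rose, by log2 changes of 1.32 to 2.25. *Mcm6* had the highest level of the 6 in each of the 15 libraries of both tables and was at 99.0 and 133 FPKM in ILC2IL-33, against 27.1, 22.9 and 30.2 FPKM in ILC2PBS, a log2 change of 2.11 ± 0.20 (adjusted p = 0.000233). *Mcm5* was at 36.8 and 49.7 FPKM in ILC2IL-33, against 10.1, 6.84 and 10.5 FPKM in ILC2PBS, a change of 2.25 ± 0.26. *Mcm7* was at 37.3 and 46.7 FPKM in ILC2IL-33, against 9.99, 8.17 and 8.73 FPKM in ILC2PBS, a change of 2.22 ± 0.20. These are the subunits with the larger changes. *Mcm3* was at 52.4 and 77.8 FPKM in ILC2IL-33, against 14.7, 14.8 and 20.9 FPKM in ILC2PBS (1.95 ± 0.25). *Mcm4* was at 40.9 and 55.8 FPKM in ILC2IL-33, against 17.1, 13.2 and 18.2 FPKM in ILC2PBS (1.58 ± 0.22). *Mcm2* was at 36.4 and 58.6 FPKM in ILC2IL-33, against 18.1, 12.9 and 27.0 FPKM in ILC2PBS (1.32 ± 0.34, adjusted p = 0.0207). *Mcm2* thus had the smallest change of the ring and the widest spread, with the WT library only a little above PBS library nA, and its 95% interval overlapped those of the other 5. The highest subunit exceeded the lowest by 2.72-fold (WT) and 2.84-fold (Expand) in ILC2IL-33, against 2.71-fold to 3.46-fold in ILC2PBS.

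**Figure D2:**
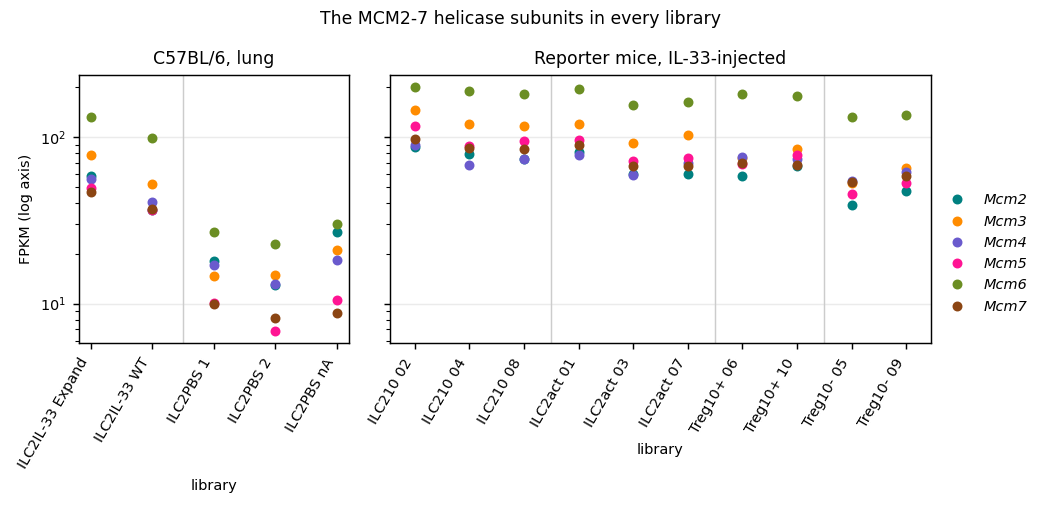
FPKM (log axis) of the 6 MCM ring genes in every library, with the groups of each table separated by vertical lines and the libraries named on the x axis. *Mcm6* is the top point in all 15 libraries, and the ring genes lie higher in ILC2IL-33 than in ILC2PBS.

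Of the 6 genes that assemble the active helicase, 5 rose, with a median of 2.63 over the 6. *Cdc45*, which joins the MCM ring at the start of S phase, was at 13.8 and 15.5 FPKM in ILC2IL-33, against 3.32, 2.01 and 1.74 FPKM in ILC2PBS, a log2 change of 2.69 ± 0.33 (adjusted p = 0.000659). The 4 GINS genes encode a fixed complex but were at unlike levels. *Gins1* was at 7.60 and 9.28 FPKM in ILC2IL-33, against 0.586, 0.381 and 0.205 FPKM in ILC2PBS, a change of 3.07 ± 0.24 on the floored scale, and the ratio of its means without the floor was 21.6. *Gins4* was at 47.8 and 33.9 FPKM in ILC2IL-33, against 29.1, 26.4 and 16.9 FPKM in ILC2PBS, and did not pass (0.78 ± 0.28, adjusted p = 0.0671), the smallest change of all 47. *Gins2* and *Gins3* changed by 2.57 and 1.34, and *Mcm10*, a factor needed to activate the helicase, by 3.07.

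Of the 6 primase and polymerase genes 5 rose, with a median of 1.87. The primase subunit gene *Prim1* had the largest change, at 35.1 and 31.2 FPKM in ILC2IL-33 against 6.09, 4.73 and 5.13 FPKM in ILC2PBS (2.65 ± 0.21, adjusted p = 0.000111). *Pole*, the catalytic subunit of the leading strand polymerase, was at 4.37 (WT) and 10.3 (Expand) FPKM in ILC2IL-33, against 1.13, 0.909 and 1.67 FPKM in ILC2PBS. Its change was 2.44 ± 0.42, and the 2 ILC2IL-33 libraries differed more in *Pole* than in any other of the 47, by 1.24 on the log2 scale. *Pold1*, the catalytic subunit of polymerase delta, was at 12.9 and 19.2 FPKM in ILC2IL-33, against 8.20, 7.00 and 8.91 FPKM in ILC2PBS. It had an adjusted p of 0.0193 but a log2 change of 0.98, just under the 2-fold limit.

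The sliding clamp group held both the highest level and the largest change of the 47. *Pcna*, the clamp itself, was the most abundant of the 47 in every library of the first table, at 182 and 155 FPKM in ILC2IL-33 against 72.6, 62.7 and 55.1 FPKM in ILC2PBS (1.41 ± 0.19, adjusted p = 0.00103). *2810417H13Rik* encodes the PCNA-associated factor, also called Pclaf, that binds the clamp during replication (chr9:65890323-65903551, plus strand, GRCm38). It was at 64.0 and 57.5 FPKM in ILC2IL-33, against 2.32, 1.43 and 4.05 FPKM in ILC2PBS. This gave a log2 change of 4.67 ± 0.41, 25.5-fold (adjusted p = 0.000157), so that the partner of the clamp changed by more than the clamp. Of the clamp loader genes, *Rfc3*, *Rfc4* and *Rfc5* rose by 1.51, 1.77 and 1.67 on the log2 scale. *Rfc2* did not pass, at 51.5 and 53.9 FPKM in ILC2IL-33 against 29.9, 30.7 and 26.4 FPKM in ILC2PBS (0.86 ± 0.16, adjusted p = 0.00516, under the 2-fold limit). *Fen1* and *Lig1*, the nuclease and ligase that finish lagging strand fragments, rose by 1.93 and 2.21, and *Rpa2*, a subunit of the single-strand binding protein, by 1.35.

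All 5 genes of nucleotide supply rose, with a median of 3.08, which was above the median of all 47. Ribonucleotide reductase makes deoxynucleotides, and its subunit genes differed. *Rrm2*, whose level limits the enzyme in S phase, was at 82.9 and 102 FPKM in ILC2IL-33, against 5.90, 4.21 and 11.5 FPKM in ILC2PBS (3.80 ± 0.39, adjusted p = 0.000307). *Rrm1*, the large subunit, was at 50.1 and 78.2 FPKM in ILC2IL-33, against 17.8, 15.2 and 22.6 FPKM in ILC2PBS (1.77 ± 0.26). In both ILC2IL-33 libraries *Rrm2* was above *Rrm1*, and in all 3 ILC2PBS libraries *Rrm1* was above *Rrm2*. *Tk1*, thymidine kinase, was at 20.4 and 26.1 FPKM in ILC2IL-33, against 2.56, 1.08 and 2.99 FPKM in ILC2PBS (3.51 ± 0.44). *Tyms*, thymidylate synthase, was at 11.1 and 10.9 FPKM in ILC2IL-33, against 1.82, 0.995 and 1.21 FPKM in ILC2PBS (3.08 ± 0.31). Thus both routes to thymidylate, salvage by *Tk1* and synthesis by *Tyms*, were higher, and *Dut*, which removes dUTP, changed by 2.21.

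Of the 6 genes that copy chromatin and DNA methylation, 5 rose. *Uhrf1*, which recognises hemimethylated DNA behind the fork and recruits Dnmt1, was at 13.3 and 21.8 FPKM in ILC2IL-33, against 0.946, 0.755 and 1.57 FPKM in ILC2PBS, a log2 change of 3.87 ± 0.34 (14.6-fold, adjusted p = 0.000157). *Dnmt1*, the maintenance methyltransferase, was at 33.7 and 57.4 FPKM in ILC2IL-33, against 12.9, 13.1 and 18.7 FPKM in ILC2PBS, a change of 1.59 ± 0.28 (adjusted p = 0.00412). *Hells*, a chromatin remodeller needed for DNA methylation, was at 16.4 and 23.0 FPKM in ILC2IL-33, against 2.16, 2.19 and 3.24 FPKM in ILC2PBS (2.97 ± 0.29). The recruiter therefore changed more than the enzyme it recruits. The subunits of the histone chaperone CAF-1 also moved unequally, since *Chaf1a* rose by 3.08 ± 0.34 and *Chaf1b*, at 9.73 and 13.5 FPKM in ILC2IL-33 against 8.61, 5.09 and 6.04 FPKM in ILC2PBS, did not pass (0.84 ± 0.30, adjusted p = 0.0648). *Slbp*, which binds replication-dependent histone mRNA, was at 52.2 (WT) and 55.6 (Expand) FPKM in ILC2IL-33, against 29.4, 18.3 and 24.3 FPKM in ILC2PBS, and rose by 1.19.

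The 3 G1/S regulators all rose. *Ccne1* and *Ccne2* encode the E cyclins, which drive entry into S phase. *Ccne1* was at 8.05 and 10.4 FPKM in ILC2IL-33, against 0.666, 0.449 and 0.999 FPKM in ILC2PBS (9.16-fold, adjusted p = 0.000101). *Ccne2* was at 11.3 and 8.76 FPKM in ILC2IL-33, against 0.698, 0.504 and 1.52 FPKM in ILC2PBS (3.11 ± 0.30). *E2f1*, the activating factor itself, was at 12.1 and 17.2 FPKM in ILC2IL-33, against 5.09, 3.83 and 4.23 FPKM in ILC2PBS (1.73 ± 0.26, adjusted p = 0.00191), a change below that of either cyclin. For the partners described above as changing unequally (*Gmnn* and *Cdt1*, *2810417H13Rik* and *Pcna*, *Rrm2* and *Rrm1*, *Uhrf1* and *Dnmt1*, *Chaf1a* and *Chaf1b*, and the E cyclins and *E2f1*) the 95% intervals of the log2 changes did not overlap, and these partners were chosen with their changes known. The intervals of *Cdc6* (1.69 to 3.03) and *Cdt1* (0.78 to 2.09) overlapped. *Brca1* rose by 2.27 ± 0.29.

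For 10 of the 47 genes at least 1 ILC2PBS library was under the floor of 1 FPKM, and the ratio of the means without the floor exceeded the floored change for each of them but *Tyms*. That ratio was 15.6 for *Cdc6*, 15.6 for *Mcm10*, 16.1 for *Uhrf1* and 13.1 for *Ccne1*. Among genes with a promoter window, the 16 with an E2F word had a median log2 change of 2.03 and the 22 without one 1.85. Their ranges, 0.98 to 4.67 and 0.84 to 3.80, overlapped in part.

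The 2 ILC2IL-33 libraries did not carry equal levels. Of the 47 genes, 32 were higher in Expand than in WT and 15 were lower, with a median difference of 0.35 on the log2 scale, while 56.2% of all genes were higher in Expand and 29.6% were lower. The MCM genes, *Rrm1*, *Rrm2*, *Dnmt1* and *Uhrf1* were among those higher in Expand, and *Pcna*, *2810417H13Rik* and *Gmnn* among those higher in WT. *Mki67*, a general marker of cycling cells that is not among the 47, was at 38.0 (WT) and 63.3 (Expand) FPKM in ILC2IL-33, against 2.36, 1.70 and 4.40 FPKM in ILC2PBS.

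Among 87 other genes of the replication and G1/S pathway, 86 were tested, of which 39 rose, 4 fell and 43 did not pass, with a median log2 change of 0.88. The 4 that fell were *Ccnd1* and *Ccnd2*, cyclins that act earlier in G1, and *Cdkn1a* and *Cdkn2b*, inhibitors of cyclin-dependent kinases, and the naming of *Ccnd2* and *Cdkn1a* was chosen after their values were seen. *Ccnd1* was at 0.378 and 1.05 FPKM in ILC2IL-33, against 17.4, 28.7 and 13 FPKM in ILC2PBS (−4.19 ± 0.35, adjusted p = 0.000135). *Cdkn2b* was at 0.163 and 0.380 FPKM in ILC2IL-33, against 4.90, 4.58 and 3.40 FPKM in ILC2PBS (−2.08 ± 0.26). At the other end, *Ccna2*, the cyclin of S phase, was at 45.2 and 58.3 FPKM in ILC2IL-33, against 3.49, 1.95 and 3.83 FPKM in ILC2PBS (4.11 ± 0.33). By role, 6 of 8 further helicase and fork genes rose (for example *Clspn*, 2.85, and *Wdhd1*, 2.50), as did 7 of 15 genes of the E2F and retinoblastoma families (*E2f8*, 3.25, and *Mybl2*, 2.96), 6 of 12 checkpoint and fork repair genes (for example *Chek1*, 2.26) and 2 of 7 licensing genes (*Dbf4*, 2.75, and *Cdc7*, 2.19). Of those that did not pass, the gene of highest level was *Cdk4* among the cyclins and their kinases (0.87, under the 2-fold limit), *Rbl2* among the E2F and retinoblastoma families (0.65) and *Cdkn1b* among the kinase inhibitors (0.47).

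The counts of this comparison rest on 5 libraries, and on the ILC2IL-33 side on 2. Without Expand, and likewise without WT, fewer of the 47 passed, and all 47 changes stayed above 0 in both cases. *Ddx3y*, a Y-linked gene, was at most 0.153 FPKM in both ILC2IL-33 libraries and in ILC2PBS nA, and at 5.47 and 8.25 FPKM in ILC2PBS libraries 1 and 2. Without libraries 1 and 2, an alternative chosen after seeing the data, fewer of the 47 passed and the median was 2.01, with all 47 above 0. A per-gene equal-variance test on floored FPKM called 11 of the 47. How far the calls over all genes fell under these alternatives is not given here, so a loss particular to the 47 is not shown. The RNA of other cell types, epithelial, endothelial, macrophage, erythroid, neutrophil and B cell markers among them, was lower in ILC2IL-33 than in ILC2PBS. Its part in the result was not tested. The ILC2 gene *Il1rl1* was at 203 and 237 FPKM in ILC2IL-33, against 214, 177 and 261 FPKM in ILC2PBS, so that its ranges overlapped.

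The second comparison asked whether ILC2s with the *Il10* reporter on differed in these genes from activated ILC2s without it. By limma over 11564 genes, 0 of the 47 passed in either direction (9.24% of all genes were higher and 1.05% lower by that rule). An unadjusted p under 0.05 was held by 9 of the 47, against 3132 of all 11564 genes. The per-gene equal-variance test called 0 of the 47. Its count over all genes is not given here, so no result about the 47 is drawn from it. The direction was nevertheless shared, as 45 of 47 changes were above 0 (54.2% of all genes), with a median log2 change of 0.27, against 0.03 over all genes. The ranges of 6 genes did not overlap, with ILC210 above (*Orc1*, *Pola2*, *Pold1*, *Fen1*, *Rrm2* and *Chaf1a*), which is 12.8% of the 47, while 20.4% of all genes had such ranges. With libraries scaled to equal medians, where the median over all genes was −0.11, 39 of 47 changes were above 0.

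Both groups were at similar high levels. The 47 genes summed to 2795, 2297 and 2337 FPKM in ILC210 (02, 04, 08), against 2408, 1776 and 1993 FPKM in ILC2act (01, 03, 07), so that the ILC2act library 01 lay above 2 of the ILC210 libraries. *Mcm2* was at 87.8, 79.6 and 74.3 FPKM in ILC210, against 81.7, 59.8 and 60.2 FPKM in ILC2act (0.27 ± 0.14). *Pcna* was at 179, 129 and 154 FPKM in ILC210, against 164, 113 and 131 FPKM in ILC2act (0.18 ± 0.16). The ranges of both genes overlapped, and the 95% interval of the log2 difference ran from −0.04 to 0.58 for *Mcm2* and from −0.19 to 0.55 for *Pcna*.

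The largest differences were in *Orc1* and *Rrm2*. *Orc1* was at 7.01, 5.32 and 7.88 FPKM in ILC210, against 4.35, 3.64 and 4.55 FPKM in ILC2act (0.68 ± 0.19, adjusted p = 0.0461). *Rrm2* was at 245, 207 and 213 FPKM in ILC210, against 181, 109 and 162 FPKM in ILC2act (0.59 ± 0.18, adjusted p = 0.0587). *Pold1* was at 42.0, 46.4 and 40.5 FPKM in ILC210, against 35.6, 32.9 and 28.0 FPKM in ILC2act (0.42 ± 0.11, adjusted p = 0.037). *Orc1* and *Pold1* were the 2 of the 47 under an adjusted p of 0.05, both under the 2-fold limit, while 1852 of all 11564 genes were under that p. For 46 of the 47 the upper end of the 95% interval was under 2-fold, the exception being *Orc1* (1.12 on the log2 scale). At the other end, *E2f1* was at 23.7, 25.2 and 24.9 FPKM in ILC210, against 21.6, 26.4 and 22.8 FPKM in ILC2act (0.07 ± 0.11), and *Gins3* (−0.11 ± 0.19) and *Ccne2* (−0.07 ± 0.22) were the 2 with a change below 0.

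Within a group, many of these genes differed in the same direction between some libraries. Within ILC2act, 45 of the 47 were higher in library 01 than in 03, with a median difference of 0.44 on the log2 scale, and within ILC210, 43 were higher in 02 than in 04 (0.28) and 43 higher in 02 than in 08 (0.24). Between ILC210 04 and 08 no such direction was seen, with 24 of the 47 higher in 04 (0.0044), and between ILC2act 03 and 07 the median was −0.17, with 8 higher in 03. Of all genes, 43.9% were higher in ILC2act 01 than in 03 and 44.6% higher in ILC210 02 than in 04. Some of the median differences within a group were thus as large as the 0.27 between the groups, and others were smaller.

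Libraries with consecutive numbers were set against each other, since the deviations of ILC2 libraries from their group means were correlated within each such pair. In the sample titles, ILC2 libraries 01, 02, 07 and 08 share a stem, and 03 and 04 share another. The stems thus do not tell the first pair from the third. Of the 47 genes, 43 were higher in ILC210 02 than in ILC2act 01, 45 in ILC210 04 than in ILC2act 03 and 44 in ILC210 08 than in ILC2act 07, with median differences of 0.23, 0.37 and 0.23. Of all genes 55.3%, 56.5% and 50.8% were higher in ILC210 in the same pairs. With the pair as a block 0 of the 47 passed. With the block and without the fold limit, an alternative chosen after seeing the data, 16 of the 47 were higher in ILC210, against 15.9% of all genes, with log2 changes of 0.27 to 0.68 that included *Orc1*, *Rrm2*, *Fen1*, *Pold1*, *Cdt1*, *Gmnn*, *2810417H13Rik*, *Uhrf1* and 4 of the 6 MCM genes (*Mcm2*, *Mcm3*, *Mcm5* and *Mcm7*).

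**Figure D3:**
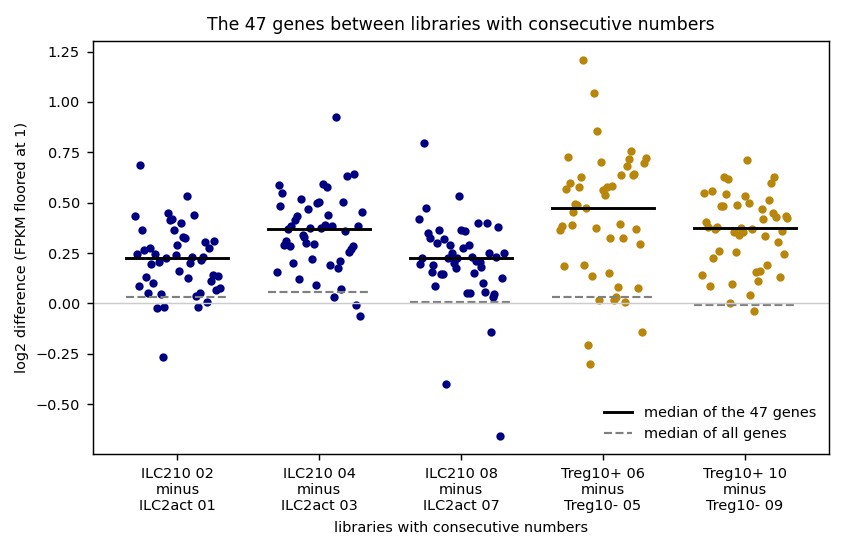
Differences of the 47 genes in log2 FPKM (floored at 1) between libraries with consecutive numbers, 3 pairs of ILC210 minus ILC2act and 2 pairs of Treg10+ minus Treg10-, 1 point a gene, with the median of the 47 (solid line) and of all genes (dashed line). From 43 to 46 of the 47 points lie above 0 in each pair, and most lie below 0.75.

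Of the other pathway genes 86 were tested, of which 2 rose, *Ccnd1* and *Cdkn2b*, and 0 fell. *Ccnd1* was at 3.00, 3.19 and 3.16 FPKM in ILC210, against 0.620, 0.503 and 0.445 FPKM in ILC2act (1.64 ± 0.19, adjusted p = 0.000396). *Cdkn2b* was at 2.40, 2.46 and 3.92 FPKM in ILC210, against 0.649, 0.607 and 1.81 FPKM in ILC2act (1.23 ± 0.31, adjusted p = 0.0281). Both had fallen in ILC2IL-33 against ILC2PBS. *Cdkn1a* and *Ccnd2*, which had also fallen there, did not pass here. *Cdkn1a* was at 51.0, 60.3 and 65.1 FPKM in ILC210, against 64.6, 87.8 and 81.0 FPKM in ILC2act. *Ccnd2* was at 29.2, 36.4 and 38.4 FPKM in ILC210, against 28.4, 42.6 and 47.2 FPKM in ILC2act.

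Epithelial, endothelial and macrophage RNA was higher in ILC210 than in ILC2act. The 5 B cell markers summed to 123 to 198 FPKM in ILC210, against 48.9 to 77.7 FPKM in ILC2act, the 6 erythroid markers to 169 to 423 FPKM, against 48.5 to 75.2 FPKM in ILC2act, and the 4 neutrophil markers found to 43.4 to 303 FPKM, against 5.79 to 16.0 FPKM in ILC2act. *Elane* was at 0 in all 6 of these libraries. The part of these cell types in the results was not tested. *Mki67* was at 57.5, 39.4 and 46.6 FPKM in ILC210, against 43.6, 32.3 and 34.8 FPKM in ILC2act.

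The third comparison set splenic Tregs with and without the *Il10* reporter against each other. By limma over 10837 genes, 0 of the 47 passed (0.904% of all genes were higher and 0.461% lower). An unadjusted p under 0.05 was held by 24 of the 47, all with Treg10+ higher, against 1524 of all 10837 genes in either direction. The per-gene equal-variance test called 0 of the 47. That test had only 2 libraries a group and its count over all genes is not given here, so no result about the 47 is drawn from it. Both Treg10+ libraries were above both Treg10- libraries for 38 of the 47 (80.9%), against 23% of all genes, and 45 of 47 changes were above 0 (51% of all genes). Without the fold limit 0 of the 47 passed as well (0.987% of all genes were higher). With libraries of consecutive numbers (06 with 05, 10 with 09) as a block, 0 of the 47 passed. With that block and no fold limit, an alternative chosen after seeing the data, 22 of the 47 were higher in Treg10+. By that rule 9.43% of all genes were higher. The median log2 change was 0.43, against 0.01 over all genes. The sum over the 47 genes was 2065 and 2092 FPKM in Treg10+ (06, 10), against 1582 and 1635 FPKM in Treg10- (05, 09).

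*Gins1* had the largest change, at 11.2 and 7.53 FPKM in Treg10+ against 4.84 and 4.88 FPKM in Treg10- (0.92 ± 0.26, adjusted p = 0.189). *Uhrf1* was at 41.4 and 49.1 FPKM in Treg10+, against 25.2 and 32.5 FPKM in Treg10- (0.66 ± 0.18, adjusted p = 0.162). *Lig1* was at 28.9 and 33.2 FPKM in Treg10+, against 19.9 and 20.3 FPKM in Treg10- (0.62 ± 0.15, adjusted p = 0.124). All 3 had separate ranges. The MCM genes all had separate ranges too, with log2 changes of 0.31 to 0.58. *Mcm5* was at 69.0 and 78.7 FPKM in Treg10+, against 45.6 and 53.4 FPKM in Treg10- (0.58 ± 0.14), and *Mcm6* at 182 and 176 FPKM, against 133 and 136 FPKM in Treg10- (0.41 ± 0.12). *Pcna* was near level, at 128 and 127 FPKM in Treg10+ against 127 and 115 FPKM in Treg10- (0.08 ± 0.13), and *Gins3* and *Gins4* were at −0.10 each. Upper ends of the 95% interval reached 2-fold or more for 10 of the 47, so a 2-fold change of those 10 is not excluded at this number of libraries.

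The 6 macrophage markers summed to 88.3 and 116 FPKM in Treg10+, against 7.67 and 25.5 FPKM in Treg10-, with none at 0, and all 6 were higher in Treg10+. The 5 B cell markers summed to 355 and 282 FPKM in Treg10+, against 144 and 242 FPKM in Treg10-, and all 5 were higher in Treg10+ too. Their part in the result was not tested. Of 84 other pathway genes tested, 0 passed in either direction by limma, with a median log2 change of 0.17. An unadjusted p under 0.05 was held by 13 of them, against 1524 of all 10837 genes. *Mki67* was at 37.9 and 49.7 FPKM in Treg10+, against 21.7 and 32.0 FPKM in Treg10-.

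Whether the ILC2 change differed from the Treg change was tested as an interaction over all 10 libraries of the second table. By limma over 12475 genes, 0 of the 47 passed at an adjusted p under 0.05, without a fold limit (9.37% of all genes did, in either direction). An unadjusted p under 0.05 was held by 3 of the 47, against 2469 of all 12475 genes. The per-gene equal-variance test has no interaction term and was not run here. The median of the difference was −0.12 on the log2 scale, against 0.04 over all genes. The ILC2 change was below the Treg change for 34 of the 47, and for 5697 of all 12475 genes. Leaving out 1 library in turn gave 25 (without ILC2act 01) to 40 (without ILC210 02 or ILC2act 03) of the 47. The largest difference was that of *Gins1*, whose ILC2 change was 0.08 ± 0.18 and whose Treg change was 0.92 ± 0.26 (difference −0.84, adjusted p = 0.17).

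The last comparisons were between cell types. In ILC2act against Treg10-, 2 of the 47 rose (8.72% of all genes were higher and 9.46% lower), *E2f1* and *Pole*. *E2f1* was at 21.6, 26.4 and 22.8 FPKM in ILC2act, against 7.77 and 9.49 FPKM in Treg10- (1.45 ± 0.16, 2.74-fold, adjusted p = 0.000481). *Pole* was at 8.56, 7.21 and 6.44 FPKM in ILC2act, against 2.83 and 4.45 FPKM in Treg10- (1.05 ± 0.25, adjusted p = 0.0154). The median log2 change of the 47 was 0.44, against −0.05 over all genes. The ranges of 28 did not overlap with ILC2act above (27.9% of all genes). Those of 1, *Ccne1*, did not overlap with ILC2act below (33.9% of all genes). Leaving out 1 ILC2act library in turn gave 1 call without ILC2act 01 and 4 without ILC2act 03 or ILC2act 07. How many of all genes passed in those fits is not given here. Without Treg10- 05 the log2 change of *Pole* was 0.72, under the 2-fold limit.

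The same question for the reporter-positive cells, ILC210 against Treg10+, gave 0 of 47 by limma over 12181 genes (12.3% of all genes were higher and 7.2% lower). The per-gene equal-variance test also gave 0, and its count over all genes is not given here. An unadjusted p under 0.05 was held by 20 of the 47, against 5213 of all 12181 genes. Changes were above 0 for 38 of the 47 (50.3% of all genes), with a median of 0.24, and the ranges of 24 did not overlap with ILC210 above (31.1% of all genes). *E2f1* came nearest, at 23.7, 25.2 and 24.9 FPKM in ILC210 against 12.6 and 12.8 FPKM in Treg10+ (0.95 ± 0.12, adjusted p = 0.00117), under the 2-fold limit. *Ccne1* ran the other way in both cell type comparisons. It was at 19.1, 12.0 and 16.5 FPKM in ILC210, against 21.2 and 22.9 FPKM in Treg10+ (−0.50 ± 0.21, adjusted p = 0.114), and at 15.4, 12.0 and 12.7 FPKM in ILC2act, against 17.3 and 17.9 FPKM in Treg10- (−0.40 ± 0.15, adjusted p = 0.0804). *Ccne2* had a log2 difference of 0.42 ± 0.24 in ILC210 against Treg10+ and 0.54 ± 0.23 in ILC2act against Treg10-, so the E cyclins differed in sign although neither passed. Of the other pathway genes, 4 were higher and 3 lower of 84 in ILC2act against Treg10-, and 2 higher and 3 lower of 86 in ILC210 against Treg10+. The inhibitor gene *Cdkn1a* had the largest change among them in both (5.49 and 3.96 on the log2 scale). Lung ILC2s and splenic Tregs differ in tissue as well as in cell type, and these cannot be told apart.

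**Figure D4:**
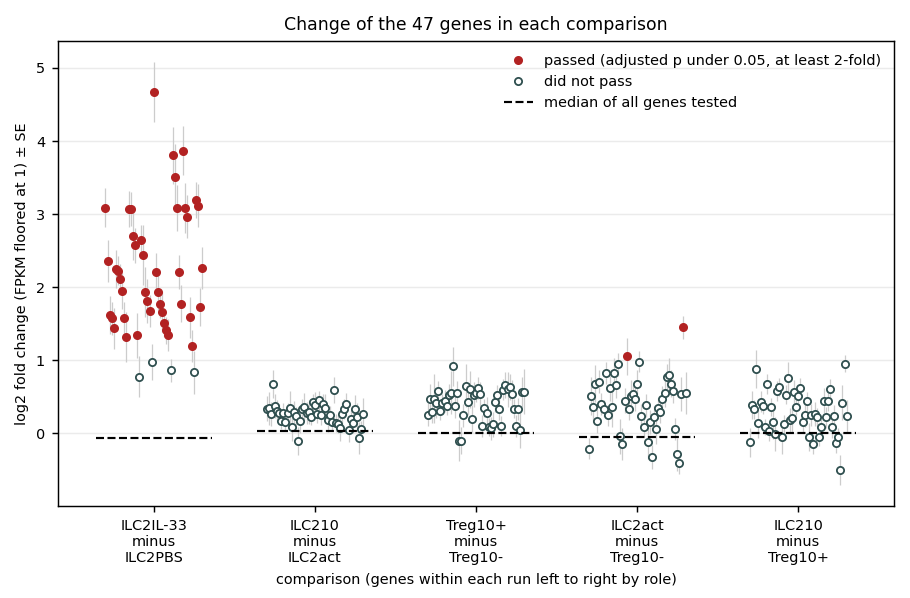
Log2 fold change with its SE of the 47 genes in each of the 5 comparisons, 1 point a gene, ordered by role within a comparison, with filled points for genes that passed and a dashed line at the median of all genes tested. In ILC2IL-33 minus ILC2PBS 43 points passed, and in the 4 comparisons of the second table, which share libraries with one another, 0, 0, 2 and 0 passed.

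Across the 4 groups of the second table, the mean of 37 of the 47 genes was highest in ILC210, of 8 in Treg10+, of 1 in ILC2act and of 1 in Treg10-. Of all genes in the 10-library fit, 29.2% were highest in ILC210. The lowest mean was in Treg10- for 40 of the 47, in ILC2act for 6 and in ILC210 for 1, while 28.0% of all genes were lowest in Treg10-. The order ILC210, ILC2act, Treg10+ and Treg10- by mean was seen for *Mcm5* at 88.8 to 117 FPKM in ILC210, 71.7 to 96.9 FPKM in ILC2act, 69.0 and 78.7 FPKM in Treg10+ and 45.6 and 53.4 FPKM in Treg10-. In that order each neighbouring pair other than Treg10+ and Treg10- overlapped. *Tk1* was at 40.6 to 48.6 FPKM in ILC210, 35.2 to 46.7 FPKM in ILC2act, 44.7 and 49.6 FPKM in Treg10+ and 31.9 and 33.4 FPKM in Treg10-. *Tyms* was at 26.3 to 29.0 FPKM in ILC210, 22.9 to 29.4 FPKM in ILC2act, 25.1 and 26.1 FPKM in Treg10+ and 19.9 and 20.8 FPKM in Treg10-. For both thymidylate genes the Treg10- libraries lay below every library of the other 3 groups.

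**Figure D5:**
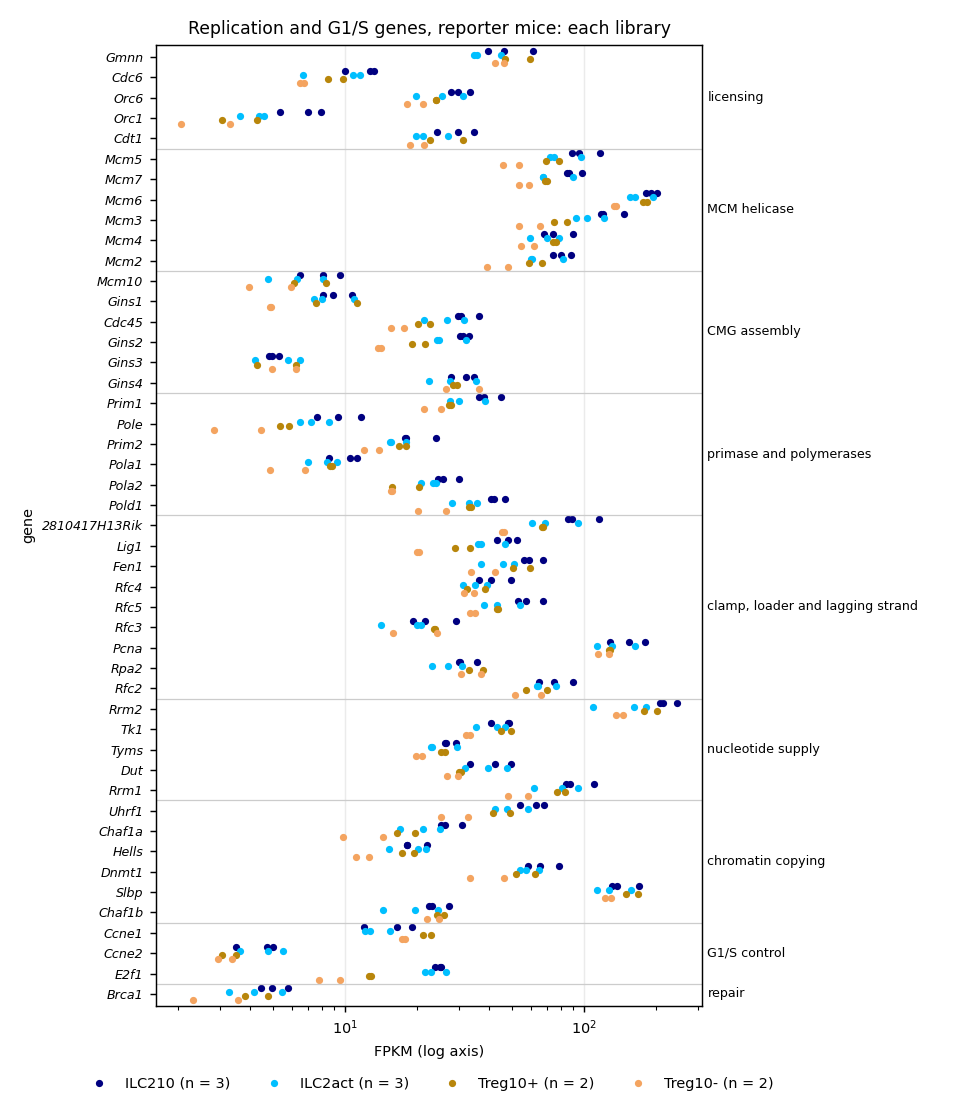
FPKM (log axis) of the 47 genes in the 10 libraries of the reporter mice, 1 point a library, grouped by role as in the plot of the IL-33 and PBS libraries. The 4 groups lie close together for most genes, with Treg10- lowest by mean in 40 of 47, and *E2f1* separates ILC2s from Tregs.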

How the data were processed

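RNA-seq of 15 libraries from sorted ILC2s and Tregs was deposited as 2 gene tables. Per the labels and the methods of the study, the authors used TopHat2 2.1.0 for alignment to GRCm38 and Cufflinks 2.2.1 for FPKM values, and the values in both deposited tables are FPKM. The table of reporter mice also holds a text flag in place of other values, so that 23529 of 23846 genes were kept, after removing 312 with no estimate and 5 that lacked a value. The first table was sequenced on an Ion Proton and the second on a NextSeq 500, and no level was compared across tables. FPKM keep no counts, so no counting interval was computed, and the number of libraries limits the precision.

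Values were set to at least 1 FPKM and log2 transformed, which can understate changes of low genes. To be tested, a gene had to exceed 1 FPKM in a number of libraries no smaller than the size of the smaller group. The test was limma 3.58.1 (R 4.3.3, eBayes with trend), with Benjamini-Hochberg adjustment over all genes tested. Genes had to reach a 2-fold change together with an adjusted p under 0.05 to pass, and every test was two-sided. The scripts were tested on simulated data. All of the 47 genes could be named, those given in full being the MCM ring and main representatives of each role, the 5 largest and 5 smallest changes and any that passed, and of the other pathway genes up to 2 that passed and 1 that did not per role. The genes and lists were chosen with earlier results of these data known. Replicates are labelled as separate samples, the pooling of mice is stated by the paper, and p-values measure only the spread between these libraries. Within groups, no pair of libraries shared more than 1 gene of equal value above 1 FPKM.

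Libraries of the second table with consecutive numbers were checked as pairs: deviations from the group means correlated at 0.345, 0.299 and 0.187 in the 3 ILC2 pairs, so a fit with the pair as a block was added. The alternatives were other pseudocounts, filters, scalings and tests, no fold limit, 1 fit of all 10 libraries and leaving out each library in turn. RefSeq promoter windows were searched for exact words. Python 3.11.15 with numpy 2.4.6, pandas 2.3.3 and matplotlib 3.10.9 was used.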

Additional observations from a re-analysis of the deposited data

How the results depend on the processing

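In ILC2IL-33 against ILC2PBS 43 of the 47 genes passed, 11 by the per-gene equal-variance test, and leaving out 1 library gave 25 to 44, with all 47 changes above 0 under every alternative that tested all 47. Without ILC2PBS libraries 1 and 2, chosen after seeing the data, 10 passed. Leaving 1 library in a group assumes that it varies like the others. How many of all genes passed under these alternatives is not given here, so a loss particular to the 47 is not shown. The median of 1.95 was 2.26 after quantile normalization and 1.87 to 2.19 with 1 library left out. The mean filter of at least 5 FPKM tested 38 of the 47 and passed 34.

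In ILC210 against ILC2act, 0 passed, and 2 without the fold limit, where 1852 of 11564 genes passed over all genes in either direction. With the replicate block and no fold limit 16 passed (15.9% of all genes were higher). In Treg10+ against Treg10- 0 passed, and the replicate block with no fold limit gave 22 of 47 (9.43% of all genes were higher). The sample titles share a stem within each of the 2 Treg pairs and differ between them. Deviations correlated at 0.385 within these pairs, but with only 2 pairs this correlation cannot by itself test the pairing. The replicate block with the fold limit gave 0 of 47 in both comparisons and in the interaction, and moved the Treg calls over all genes from 98 higher and 50 lower to 311 higher and 123 lower.

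In ILC2act against Treg10-, 2 passed, and 15 without the fold limit, where 4191 of 11308 genes passed over all genes in either direction. With equal medians 4 passed, and 1 with log2(FPKM + 1), without the low-value filter or by the per-gene equal-variance test. With 1 ILC2act library left out 1 to 4 passed. In ILC210 against Treg10+, 0 passed, and 14 without the fold limit, where 3882 of 12181 genes passed over all genes in either direction. With 1 ILC210 library left out 0 to 1 passed (1 without ILC210 04). In the interaction, 0 passed, 1 with equal medians. Why these counts moved was not tested, other than that fewer libraries or no fold limit enter by construction.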
